A study of Rattus norvegicus with 18 samples.

Results

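The granins Chga, Chgb, Scg2 and Scg3 were followed across medullary thyroid carcinomas, tumours of the calcitonin-secreting C cells, of MENX rats. They were found by gene symbol in the platform annotation, 4 of 14506 genes with a symbol, and each had 1 probe set. All 4 were among the 11370 genes tested. MENX rats carry a mutation of Cdkn1b, which encodes the cell cycle inhibitor p27Kip1, and develop neuroendocrine tumours. The 18 arrays fell into 3 groups of 6 tumours: homozygous mutants aged 9 months, heterozygous mutants aged 18 months and heterozygous mutants aged 9 months. The labels give the strain as Sprague–Dawley white eye/Wistar–Kyoto, the housing as spf and no treatment, for every group. All animals thus carried at least 1 mutant allele, and normal thyroid was not analysed here. Each array has an animal code of its own in the labels, so SDs describe the spread between animals. Sex, litter and array date are not given in the sources used here.

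Granins are acidic, calcium-binding proteins of the regulated secretory pathway. They aggregate in the trans-Golgi network, where dense-core granules bud, and are stored with peptide hormones until calcium triggers release. Prohormone convertases cut them into shorter peptides inside the granule, and blood chromogranin A is a widely used marker of neuroendocrine tumours. In C cells these granules hold calcitonin, made from the Calca transcript.

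Values are log2 probe set intensities, normalized by the authors, so a difference of 1 is a 2-fold difference. Levels of different genes were not set against each other, because each probe set has its own brightness. On every array the C cell markers Calca and Ret were bright, Calca at 13.75 to 14.12 and Ret at 10.80 to 11.48. Pth, the parathyroid hormone gene, ranged from 6.02 to 14.26 over the 18 tumours, and Tg, the thyroglobulin gene of follicular cells, from 11.08 to 14.37. The low Tg value was that of 18-month replicate 1, with the next of its group at 13.94. Pth thus differed widely between specimens, and Tg mainly in 1 tumour, its other values lying near the brightest of any array. Cdkn1b itself ranged from 10.96 to 11.25 in homozygous tumours, from 10.65 to 11.10 in 18-month tumours and from 10.67 to 10.90 in heterozygous 9-month tumours. The MENX mutation is a frameshift in its coding sequence, so this level does not check the genotype. On the first principal component, with 63.9% of the variance, 18-month replicates 1, 2, 3 and 6 (35.8 to 69.9) stood apart from the 9-month tumours (-28.6 to 24.0). The 18-month replicates 4 and 5 lay at -11.7 and 4.21, and homozygous replicate 3 was the highest 9-month tumour.

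The age comparison asked how tumours of heterozygous mutants at 18 months differ from those at 9 months. Chgb, Scg2 and Scg3 rose in the 18-month tumours, by 2.26-fold, 4.77-fold and 2.63-fold, and Chga did not pass the test. Thus 3 of the 4 granins rose, where limma called 21.6% of all genes tested higher and 44.1% changed in either direction. In bulk tissue, more tumour cells in a specimen and more RNA per tumour cell cannot be told apart.

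Chga encodes chromogranin A, which drives aggregation of granule contents and is the precursor of vasostatin, pancreastatin and catestatin. Its lowest, median and highest values were 12.25, 12.44 and 13.15 in the 18-month tumours, against 11.83, 12.76 and 13.15 in the 9-month tumours. The groups overlapped over nearly their whole range, and the lowest tumour of all was 9-month replicate 1. Chga averaged 12.53 ± 0.33 at 18 months and 12.67 ± 0.46 at 9 months (SD, n = 6 each). The difference was -0.14 (SE 0.19, 95% interval -0.55 to 0.27, limma adjusted p = 0.590), which leaves room for a fall or a rise within those bounds.

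Chgb encodes chromogranin B, another granule matrix protein that promotes granule formation. Its lowest, median and highest values were 12.35, 13.10 and 13.23 in the 18-month tumours, against 11.30, 11.78 and 12.02 in the 9-month tumours. All 6 tumours of 18 months lay above all 6 of 9 months, and the lowest of them was replicate 4. The means were 12.95 ± 0.35 at 18 months and 11.77 ± 0.25 at 9 months (SD, n = 6 each), a difference of 1.18 (SE 0.18, 95% interval 0.80 to 1.56, limma adjusted p = 0.000384).

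Scg2 encodes secretogranin II, the precursor of secretoneurin. Its lowest, median and highest values were 10.09, 12.54 and 13.56 in the 18-month tumours, against 9.00, 9.87 and 10.95 in the 9-month tumours. In 5 of the 6 tumours of 18 months Scg2 lay above every tumour of 9 months. The exception was replicate 4, at 10.09, while replicate 5 at 11.01 lay just above the 9-month range. The means were 12.19 ± 1.37 at 18 months and 9.94 ± 0.72 at 9 months (SD, n = 6 each), a difference of 2.25 (SE 0.57, 95% interval 1.05 to 3.46, limma adjusted p = 0.00492).

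Scg3 encodes secretogranin III, which binds cholesterol-rich granule membranes and tethers chromogranin A to them. Its lowest, median and highest values were 11.66, 12.84 and 13.01 in the 18-month tumours, against 10.77, 11.19 and 11.53 in the 9-month tumours. The groups did not overlap, and replicate 4 was again the lowest of the 18-month tumours. The means were 12.59 ± 0.53 at 18 months and 11.20 ± 0.26 at 9 months (SD, n = 6 each), a difference of 1.39 (SE 0.23, 95% interval 0.91 to 1.88, limma adjusted p = 0.000514). Chgb and Scg3 were thus the granins whose 18-month values all lay above the 9-month ones, 2 of 4, where 9.07% of all genes tested did so.

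**Figure D1:**
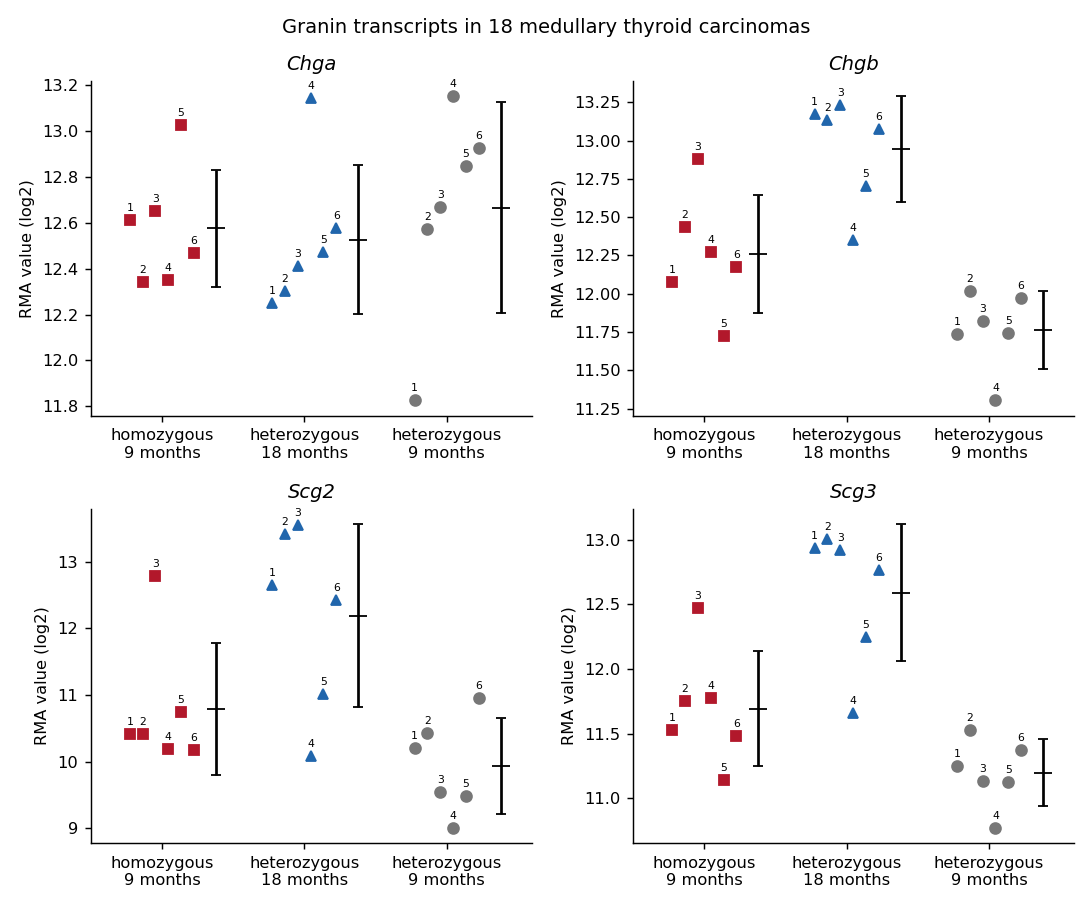
Log2 values of each granin (vertical axis) in the 3 groups of 6 tumours (horizontal axis), with every tumour as a point and the group mean with its SD. Chgb and Scg3 at 18 months lie wholly above the heterozygous tumours of 9 months, Scg2 does so in 5 of 6 tumours, and Chga overlaps throughout.

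Markers of several other cell types moved with this comparison. Of the follicular markers 8 of 9 fell at 18 months and none rose, and of the endothelial markers 9 of 9 fell. Over all genes tested 22.4% were lower and 21.6% higher, the shares to set beside each list here. Of the adipocyte markers 6 of 6 fell, and of the fibroblast markers 4 of 8 fell and 1 rose. Of the macrophage markers 3 of 6 rose and 1 fell. Of the skeletal muscle markers 1 of 7 fell and of the nerve and Schwann markers 1 of 5, with none rising in either list. The follicular list mean ranged from 7.36 to 10.73 at 18 months and from 10.89 to 10.99 at 9 months. The endothelial list mean ranged from 8.06 to 9.73 at 18 months and from 9.77 to 9.92 at 9 months. Of the parathyroid markers 2 of 4 fell and 1 rose. The fallers, Gcm2 and Gata3, passed narrowly (limma adjusted p = 0.0468 and 0.0475). The Gcm2 call was lost without the filter (adjusted p = 0.0560) and with only the compared groups in the fit (adjusted p = 0.0540). It was also lost in most fits that left out 1 array of the pair. The riser was Casr, the calcium receptor, which C cells also express. The C cell list had 4 of 9 members higher and 2 lower, Gfra1 (-1.35) and Nkx2-1 (-0.37). The mean of that list ranged from 9.49 to 9.91 at 18 months and from 9.18 to 9.46 at 9 months. With the follicular mean as a covariate none of the granin rises passed the test. The differences were then 0.71 for Chgb (adjusted p = 0.0883), 0.68 for Scg2 (adjusted p = 0.606) and 0.72 for Scg3 (adjusted p = 0.129). With the parathyroid mean as a covariate Scg2 no longer passed either, at 1.62 (adjusted p = 0.0610). The part of these cells in the granin differences was not tested.

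The genotype comparison, at 9 months, set homozygous against heterozygous tumours. No granin passed the test, where limma called 0% of all genes tested. At an unadjusted p under 0.05 stood 2 of the 4, Chgb and Scg3, where 8.75% of all genes did. Both had nearly the same difference, about 1.41-fold higher in homozygous tumours. All 9 follicular and all 9 endothelial markers were lower in homozygous tumours and all 9 C cell markers higher, none of them called. The median differences of these lists were -0.30, -0.28 and 0.38, against 0.0022 over all genes tested.

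Chgb had lowest, median and highest values of 11.72, 12.22 and 12.88 in homozygous tumours, against 11.30, 11.78 and 12.02 in heterozygous tumours. In 5 of the 6 homozygous tumours it lay above every heterozygous one. The means were 12.26 ± 0.39 in homozygous and 11.77 ± 0.25 in heterozygous tumours (SD, n = 6 each), a difference of 0.49 (SE 0.18, 95% interval 0.11 to 0.88, limma adjusted p = 0.495).

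Scg3 had values of 11.14, 11.64 and 12.47 in homozygous tumours, against 10.77, 11.19 and 11.53 in heterozygous tumours, again as lowest, median and highest. The groups overlapped, with 3 homozygous tumours above every heterozygous one. The means were 11.69 ± 0.44 in homozygous and 11.20 ± 0.26 in heterozygous tumours (SD, n = 6 each), a difference of 0.49 (SE 0.23, limma adjusted p = 0.565).

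Scg2 had values of 10.18, 10.42 and 12.78 in homozygous tumours, against 9.00, 9.87 and 10.95 in heterozygous tumours. Homozygous replicate 3 stood alone at 12.78, and the other 5 lay within the heterozygous range. The means were 10.79 ± 1.00 in homozygous and 9.94 ± 0.72 in heterozygous tumours (SD, n = 6 each), a difference of 0.85 (SE 0.57, 95% interval -0.35 to 2.06, limma adjusted p = 0.656). Without homozygous replicate 3 it was 0.45. In that tumour the follicular list mean was 10.01, against 10.69 to 10.91 in the other homozygous tumours, and its endothelial list mean of 9.14 was the second lowest of them.

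Chga had values of 12.34, 12.54 and 13.03 in homozygous tumours, against 11.83, 12.76 and 13.15 in heterozygous tumours. Every homozygous tumour lay within the heterozygous range. The difference was -0.09 (SE 0.19, 95% interval -0.50 to 0.32, limma adjusted p = 0.902).

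Homozygous tumours of 9 months were also set against heterozygous tumours of 18 months, a pair that differs in both genotype and age. Chgb and Scg3 were lower in homozygous tumours, 2 of 4 granins, where 13.6% of all genes tested were called lower and 29.8% changed in either direction. Chgb differed by -0.68 (SE 0.18, limma adjusted p = 0.0138) and Scg3 by -0.90 (SE 0.23, adjusted p = 0.0125). Neither passed with the compared groups alone in the fit (adjusted p = 0.0532 and 0.0539) or with the follicular or the parathyroid mean as a covariate. Scg2 differed by -1.40 (SE 0.57, adjusted p = 0.0726) while for Chga the difference was 0.05 (SE 0.19, adjusted p = 0.871). The Scg2 difference passed once homozygous replicate 3 was left out, at -1.80. It also passed without 18-month replicate 4, at -1.82, or 5, at -1.64. The 3 comparisons share arrays, so they do not bear on each other independently. For Chgb, Scg2 and Scg3 the group means ran from heterozygous 9-month through homozygous 9-month to heterozygous 18-month tumours. Homozygous and heterozygous 9-month tumours, neighbours in that order, were not called different for any granin. Homozygous 9-month and 18-month tumours, the next neighbours, were for Chgb and Scg3. For Chga no neighbours were called.

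**Figure D2:**
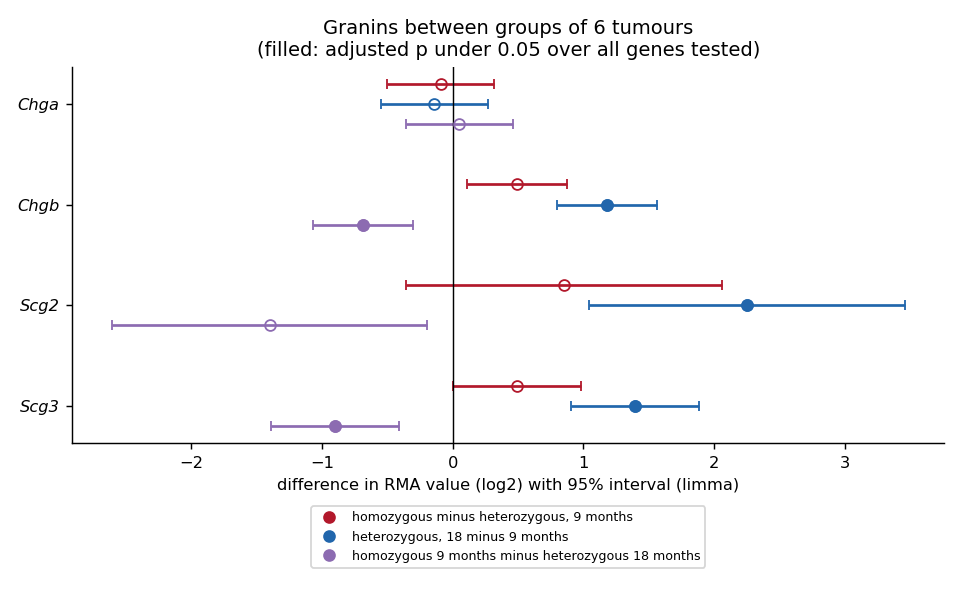
Log2 difference between groups for each granin, with its 95% interval from limma, in the 3 comparisons. At 18 months against 9 months the intervals of Chgb, Scg2 and Scg3 lie above 0 and that of Chga spans 0.

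Whether granins moved by unequal amounts was tested on the log2 ratio of their values within each tumour. The ratio of Chgb over Chga was higher by 1.32 at 18 than at 9 months, that of Scg2 over Chga by 2.39 and that of Scg3 over Chga by 1.53. Each of these 3 lay above every 9-month tumour in 5 of the 6 tumours of 18 months. None passed after adjustment over 12 ratio tests, with adjusted exact permutation p-values of 0.0519, 0.0606 and 0.0519 (two-sided). Without 18-month replicate 4 all 6 ratios of the age comparison passed, and without 9-month replicate 1 those of Chgb and Scg3 over Chga did. Among the risers the ratio of Scg3 over Chgb differed by 0.21 (adjusted exact permutation p = 0.110) and that of Scg2 over Scg3 by 0.86 (adjusted exact permutation p = 0.139). In the genotype comparison the ratio of Chgb over Scg3 was 0.57 ± 0.11 in homozygous and 0.57 ± 0.08 in heterozygous tumours (SD, n = 6 each). That difference was 0.00067 (adjusted exact permutation p = 0.996). The spread between tumours was not called different for any granin either. Scg2, the most variable, had an SD of 1.37 at 18 and 0.72 at 9 months (adjusted exact permutation p = 0.733, over 8 tests).

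Within groups the granins did not vary alike. Each tumour was taken as its deviation from its own group mean, so that group differences play no part, and the 6 pairs were correlated over the 18 tumours. Chgb and Scg3 rose and fell together almost tumour by tumour (Pearson r = 0.96, adjusted permutation p = 6e-05, Spearman rho = 0.95, adjusted permutation p = 6e-05). The unadjusted permutation p of 1e-05 is the smallest that 100000 resamples can give. Scg2 followed Scg3 (r = 0.88, adjusted permutation p = 0.00072, rho = 0.84, adjusted permutation p = 0.00114) and Chgb (r = 0.82, adjusted permutation p = 0.00072, rho = 0.82, adjusted permutation p = 0.00124). Without the 2 tumours farthest from the median these r were 0.95, 0.76 and 0.66.

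Chga correlated negatively with the others over all 18 tumours. It correlated at -0.50 with Chgb (adjusted permutation p = 0.0399, rho = -0.42, adjusted permutation p = 0.118) and at -0.54 with Scg3 (adjusted permutation p = 0.0256, rho = -0.49, adjusted permutation p = 0.0706). With Scg2 it was -0.34 (adjusted permutation p = 0.165, rho = -0.29, adjusted permutation p = 0.272). The rank correlations with Chga thus did not pass. Without the 2 farthest tumours r was -0.55 with Chgb, -0.51 with Scg3 and -0.13 with Scg2. Within homozygous tumours the signs were mixed, with r of -0.48 with Chgb, -0.36 with Scg3 and 0.31 with Scg2, and without the 2 farthest of these tumours it was 0.44 with Chgb and 0.44 with Scg3. Within 18-month tumours r was -0.86, -0.90 and -0.80 with Chgb, Scg3 and Scg2, and within heterozygous 9-month tumours -0.30, -0.42 and -0.33. None of these 9 within-group values passed after adjustment.

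Within the groups Chgb and Scg3 correlated at 0.98 in homozygous, 0.99 in 18-month and 0.95 in heterozygous 9-month tumours, each with an adjusted exact permutation p of 0.0350 over 18 within-group pairs. Spearman's rho was 0.89, 0.77 and 0.83, with adjusted exact permutation p-values of 0.150, 0.206 and 0.175, so none passed by rank. Without the 2 farthest of each group Pearson's r was 0.80, 0.54 and 0.72 over 4 tumours.

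**Figure D3:**
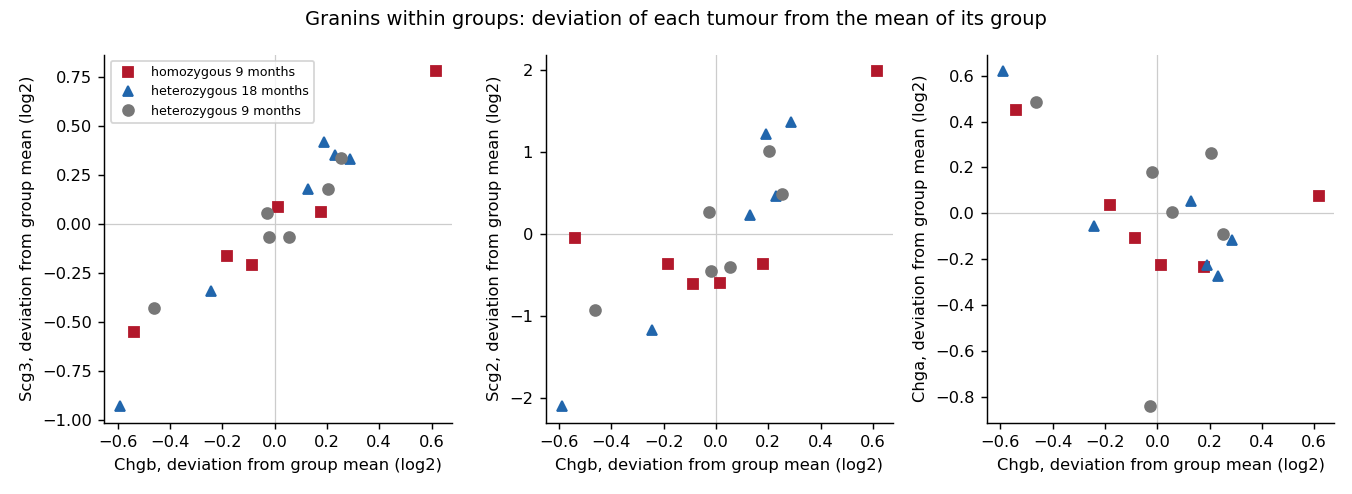
Deviation of each tumour from its group mean (log2) for pairs of granins, with the groups as different symbols and Chgb on each horizontal axis. Chgb and Scg3 lie along a rising line in every group (r = 0.96 over 18 tumours), and Scg2 rises with Chgb (r = 0.82). Chga tends to fall as Chgb rises (r = -0.50, not past the threshold by rank after adjustment).

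Chga varied with parathyroid markers. Parathyroid chief cells also store chromogranin A, together with parathyroid hormone. Over the 18 deviations Chga and the mean of Pth, Gcm2, Casr and Gata3 correlated at r = 0.80 (adjusted permutation p = 0.00252) and rho = 0.74 (adjusted permutation p = 0.0114, both over 36 pairs of granin and cell type list). Without the 2 farthest tumours r was 0.75. It was 0.73 within homozygous, 0.79 within 18-month and 0.97 within heterozygous 9-month tumours. The low Chga tumour of the last group, replicate 1, had a parathyroid mean of 9.34, against 11.64 to 12.37 in the other 5. The high Chga tumour of the 18-month group, replicate 4, had one of 12.40, against 8.23 to 10.25 in the other 5. After removal of the parathyroid mean the correlation of Chga with Chgb was -0.14 and with Scg3 -0.17, and neither passed. Scg3 ran against the parathyroid mean by rank (rho = -0.60, adjusted permutation p = 0.0440) but did not pass by Pearson's r (-0.57, adjusted permutation p = 0.0915). With that mean as a covariate Chga differed by 0.22 between 18 and 9 months (adjusted p = 0.265).

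The other granins tracked the mean of the C cell list, at r = 0.85 for Chgb (adjusted permutation p = 0.00036), 0.83 for Scg3 (adjusted permutation p = 0.00234) and 0.72 for Scg2 (adjusted permutation p = 0.0287). Spearman's rho was 0.82, 0.78 and 0.69 in the same order (adjusted permutation p = 0.0054, 0.00774 and 0.0226), and r without the 2 farthest tumours was 0.76, 0.72 and 0.46. Single markers of the list differed. In that order r was 0.74, 0.70 and 0.54 with Calca, but 0.06, -0.03 and -0.28 with Ret. The list also holds Calcb, the gene most like Scg2 (r = 0.96). With the follicular list r was -0.62 for Chgb, -0.70 for Scg3 and -0.66 for Scg2 (adjusted permutation p = 0.0238, 0.0238 and 0.0545), and rho was -0.76, -0.78 and -0.69 (adjusted permutation p = 0.0123, 0.0114 and 0.0303). With the endothelial list r was -0.63, -0.74 and -0.72 in the same order (adjusted permutation p = 0.0467, 0.0290 and 0.0446), and rho was -0.66, -0.71 and -0.71 (adjusted permutation p = 0.0316, 0.0303 and 0.0273). Without the 2 farthest tumours r lay between -0.76 and -0.50 for these 6 pairs. Within homozygous tumours r of these 3 granins with the follicular list lay between -0.95 and -0.80, and within 18-month tumours between -0.83 and -0.73. The homozygous values lean on replicate 3, the highest of its group for all 3 granins. Its follicular mean was 10.01, against 10.69 to 10.91 in the other homozygous tumours. Correlations within that group were not computed without it. Within heterozygous 9-month tumours, among which these markers varied little, r was -0.18 for Chgb, 0.04 for Scg3 and -0.06 for Scg2 with the follicular list, and -0.34, -0.19 and -0.09 with the endothelial one. The part of those cells in the granin values was not tested.

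**Figure D4:**
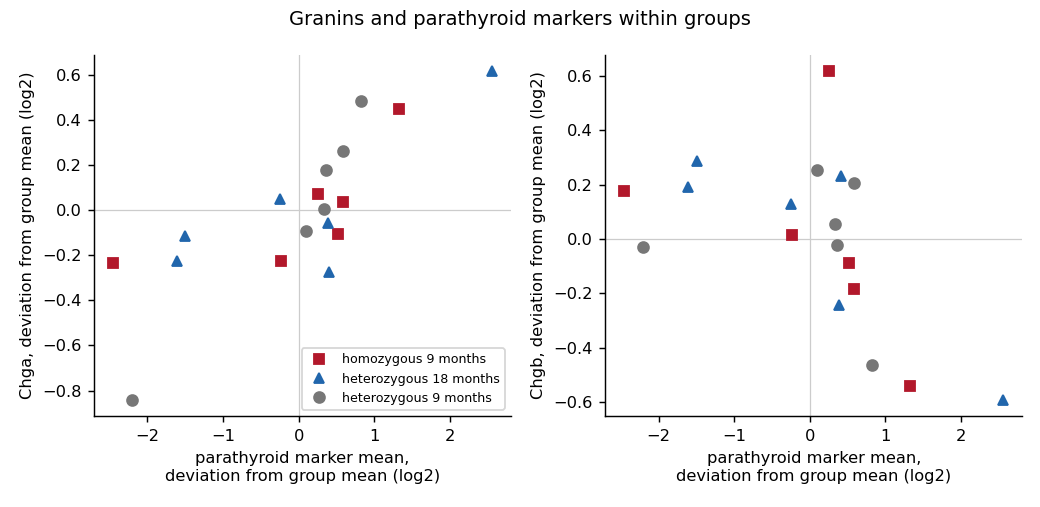
Deviation of the parathyroid marker mean from its group mean (horizontal, log2) against that of Chga (left) and Chgb (right), 18 tumours. Chga rises with the parathyroid markers in each group (r = 0.80 overall), and Chgb tends the other way (r = -0.54, not past the threshold after adjustment).

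The genes most like each granin were ranked by the correlation of these deviations among all genes tested, as a description. For Chgb they were Nfasc, the cell adhesion protein neurofascin (r = 0.98), Ina, the neuronal filament protein alpha-internexin (0.97), and Spock2, a matrix proteoglycan (0.97). Scg3 itself stood at place 5 of 11369 for Chgb. For Scg3 they were St8sia3, a sialyltransferase (0.99), Cadps, which primes dense-core granules for release (0.98), and Cacna2d2, a calcium channel subunit (0.98). For Scg2 they were Calcb, the second calcitonin gene-related peptide gene (0.96), Syn1, the vesicle protein synapsin I (0.95), and Prtfdc1 (0.94). For Chga they were Rnf217, a ubiquitin ligase (0.95), Slc9a4, a sodium-proton exchanger (0.92), and Kif13b, a kinesin motor (0.92). Chgb stood at place 20 of 11369 for Scg3. Scg2 stood lower, at place 482 for Chgb and 149 for Scg3. In the ranking for Scg2, Scg3 stood at place 352 and Chgb at place 570, so many other genes followed Scg2 more closely. All values are over the same 18 tumours, which share their tissue makeup.

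The 250 bases before the RefSeq gene start (GRCr8) are printed for Chgb, Scg2 and Scg3, the 3 of 4 granins that matched the promoter table, and were searched for short motifs chosen after the values had been seen. The motifs were the full cyclic AMP response element TGACGTCA and its core TGACG, bound by CREB-type factors, and the box GGGCGG, bound by Sp1-type factors. The last were TTCAGCACC and GGACAG, the left and right parts of the element that the neuronal gene repressor REST binds. Both strands were read, and capitals mark the matches.
Chgb (chr3:140496462-140496711, plus strand): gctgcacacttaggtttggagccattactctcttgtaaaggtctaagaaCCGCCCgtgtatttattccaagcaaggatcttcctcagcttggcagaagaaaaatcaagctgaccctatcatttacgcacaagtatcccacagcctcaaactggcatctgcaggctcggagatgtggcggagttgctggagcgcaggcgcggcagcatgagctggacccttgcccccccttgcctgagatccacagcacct
Scg2 (chr9:88256867-88257116, minus strand): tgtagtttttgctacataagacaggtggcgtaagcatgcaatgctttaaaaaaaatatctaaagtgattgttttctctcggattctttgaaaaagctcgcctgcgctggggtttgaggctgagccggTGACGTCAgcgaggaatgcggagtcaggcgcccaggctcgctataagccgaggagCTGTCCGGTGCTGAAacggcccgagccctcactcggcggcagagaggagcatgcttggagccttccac
Scg3 (chr8:85322485-85322734, minus strand): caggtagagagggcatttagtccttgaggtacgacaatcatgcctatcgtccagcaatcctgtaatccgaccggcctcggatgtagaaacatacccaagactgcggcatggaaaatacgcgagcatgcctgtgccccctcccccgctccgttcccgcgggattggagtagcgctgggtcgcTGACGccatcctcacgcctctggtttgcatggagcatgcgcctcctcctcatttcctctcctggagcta

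Scg2 held the full cyclic AMP element 123 to 116 bases before its start, as 1.59% of 33469 such windows do. It also held TTCAGCACC, read on the other strand as GGTGCTGAA, at 62 to 54 bases, as 0.305% of windows do. GGACAG, read as CTGTCC, adjoined it at 68 to 63 bases, and the joined form was in 3 windows in all. The usual element of REST has 2 bases between these parts, a form that was in 2 windows. The Scg2 window held only the joined form. Scg3 held the core TGACG at 69 to 65 bases before its start, a motif in 18.2% of windows that the full element also contains. Chgb held GGGCGG, read as CCGCCC, at 201 to 196 bases, as 30.5% of windows do. These are matches of letters, not measured binding. The Scg2 start used in the table lies 342 bases inside the outer end of its gene model.

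Of the listed regulators of granin genes 8 were tested, and at 18 months 4 rose, 1 fell and 3 did not pass (median difference 0.35). Over all genes tested 21.6% were higher and 22.4% lower, with a median of -0.0045. The gene that fell was Rest. Its lowest, median and highest values were 7.05, 7.72 and 9.10 at 18 months, against 9.13, 9.21 and 9.35 at 9 months. The groups did not overlap. Rest differed by -1.31 (SE 0.29, limma adjusted p = 0.00234), and by -0.23 (SE 0.19, adjusted p = 0.579) with the follicular mean as a covariate. Rising were Foxa2, a pioneer factor of endoderm (1.57, SE 0.26), Isl1, a homeobox factor of neuroendocrine cells (1.29, SE 0.25), Rcor2, a corepressor (0.38, SE 0.09), and the histone deacetylase Hdac2 (0.31, SE 0.10). With the follicular covariate none of these 4 passed, at 0.77, 0.73, 0.14 and 0.12 (adjusted p = 0.110, 0.212, 0.449 and 0.668), and with the parathyroid covariate Hdac2 did not (0.24, adjusted p = 0.118). Creb1, the cyclic AMP response factor, differed by 0.03, Egr1, an immediate early factor, by 0.55 (adjusted p = 0.0553) and Hdac1 by 0.06. In homozygous against heterozygous tumours of 9 months limma called 0 of the 8, and Rest differed by -0.18 (SE 0.29, adjusted p = 0.861).

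Within groups Rest ran against the 3 granins that rose, in a family of 4 pairs chosen after the values had been seen. With Scg3 r was -0.83, with Scg2 -0.82 and with Chgb -0.71 (adjusted permutation p = 0.00052, 0.00268 and 0.00122). Spearman's rho was -0.77, -0.70 and -0.72 (adjusted permutation p = 0.00284, 0.00663 and 0.00486), and r without the 2 farthest tumours was -0.74, -0.80 and -0.61. With Chga r was 0.45 (adjusted permutation p = 0.0187, rho = 0.52, adjusted permutation p = 0.0338), and 0.18 without the 2 farthest tumours. For Scg3 r was -0.94 within homozygous and -0.93 within 18-month tumours, and -0.07 within heterozygous 9-month tumours, among which Rest varied little. Homozygous replicate 3 had the highest Scg3 of its group and Rest at 8.39, against 9.08 to 9.31 in the other homozygous tumours. The r within homozygous tumours was not computed without it, and these within-group values were not tested. The follicular and endothelial lists were lower at 18 months as Rest was.

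Of the granin-like proteins 3 were tested and all 3 rose at 18 months (median 0.88), where 21.6% of all genes did. None passed in homozygous against heterozygous tumours. Pcsk1n encodes proSAAS, a granin-like inhibitor of prohormone convertase 1. It averaged 12.40 ± 0.30 at 18 months and 10.90 ± 0.25 at 9 months (SD, n = 6 each), a difference of 1.49 (SE 0.18, limma adjusted p = 0.000167, 6 of 6 above every 9-month tumour). Pcsk1n also passed with the follicular covariate (1.45, adjusted p = 0.0199), which Scg5 (0.58, adjusted p = 0.101) and Gnas (0.12, adjusted p = 0.633) did not. Scg5 encodes 7B2, the chaperone of prohormone convertase 2, and differed by 0.88 (SE 0.14, adjusted p = 0.000442, also 6 of 6). Gnas, whose locus also encodes the granin-like protein NESP55 besides a G protein subunit, differed by 0.22 (SE 0.08, adjusted p = 0.0363), and its 2 probe sets do not tell the transcripts apart here. That call was lost in 8 of the 12 fits that left out 1 array of the pair, among them the fit without 9-month replicate 1 (0.17, adjusted p = 0.0902). Vgf, another granin-like precursor, lay below the level needed for testing and averaged 6.84 ± 1.22 at 18 months and 5.71 ± 0.13 at 9 months (SD, n = 6 each). In homozygous against heterozygous tumours Pcsk1n differed by 0.91 (SE 0.18, adjusted p = 0.118). It passed there with array weights (0.83, adjusted p = 0.0254) and without homozygous replicate 5 (1.04, adjusted p = 0.0495).

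The rest of the secretory pathway was counted in 4 lists, each to be read against the 21.6% of all genes tested that were higher and the 22.4% that were lower at 18 months. Of 9 prohormone processing genes 7 rose and 1 fell at 18 months (median 0.63). Among them were Cpe, the carboxypeptidase that trims cut prohormones (1.49, SE 0.26), Pcsk2, prohormone convertase 2 (0.86, SE 0.13), Pam, which amidates peptides such as calcitonin (0.80, SE 0.13), and Furin, a convertase of the Golgi (0.63, SE 0.10). With the follicular covariate none of these 4 passed, at 0.64, 0.65, 0.51 and 0.39 (adjusted p = 0.173, 0.0706, 0.112 and 0.0811). Of 22 genes of granule biogenesis and membrane 16 rose and 2 fell (median 0.59). Ptprn and Ptprn2, receptor-like phosphatase proteins of the granule membrane, rose by 2.15 (SE 0.39) and 1.55 (SE 0.26), and Scamp5, a vesicle carrier protein, by 0.82 (SE 0.12). Sv2b, a synaptic vesicle glycoprotein, fell by 1.11 (SE 0.14). With the follicular covariate Ptprn (0.88), Ptprn2 (0.77) and Scamp5 (0.40) did not pass (adjusted p = 0.192, 0.133 and 0.0591), and Sv2b did (-0.73, adjusted p = 0.0360).

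Of 26 exocytosis genes 16 rose and 5 fell (median 0.78). Unc13a, a priming factor, rose by 1.29 (SE 0.21), Rph3al, a Rab effector of granules, by 1.08 (SE 0.16) and Syt7, a calcium sensor, by 1.07 (SE 0.13), while Rab27b, a granule docking GTPase, fell by 0.78 (SE 0.12). With the follicular covariate Unc13a (0.51), Rph3al (0.67) and Rab27b (-0.42) did not pass (adjusted p = 0.0518, 0.0596 and 0.0820), and Syt7 did (0.84, adjusted p = 0.0360). Of 15 peptide cargo genes 4 rose and none fell (median 0.24), a share of risers near that over all genes. These were Calcb (2.87, SE 0.63), Cartpt (1.32, SE 0.37), Nmu (1.07, SE 0.30) and Calca (0.24, SE 0.05). With the follicular covariate none of these 4 passed, at 0.89, 0.47, 0.95 and 0.22 (adjusted p = 0.447, 0.614, 0.248 and 0.102). With the parathyroid covariate Cartpt (0.77, adjusted p = 0.108) and Nmu (0.55, adjusted p = 0.109) did not. Calca lay close to the brightest values of any array (14.43 to 14.49), where differences can be compressed. In homozygous against heterozygous tumours limma called 0 members of each list. Medians were 0.22 for processing, 0.12 for biogenesis, 0.25 for exocytosis and -0.03 for cargo, against 0.0022 over all genes tested. Sv2b differed there by -0.86 (SE 0.14, limma adjusted p = 0.102). It passed with only the compared groups in the fit (adjusted p = 0.00289), with array weights (adjusted p = 0.00103) and with the follicular covariate (adjusted p = 0.00844). The lists were counted and not tested as sets, and markers of several cell types above moved with the same comparison.

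**Figure D5:**
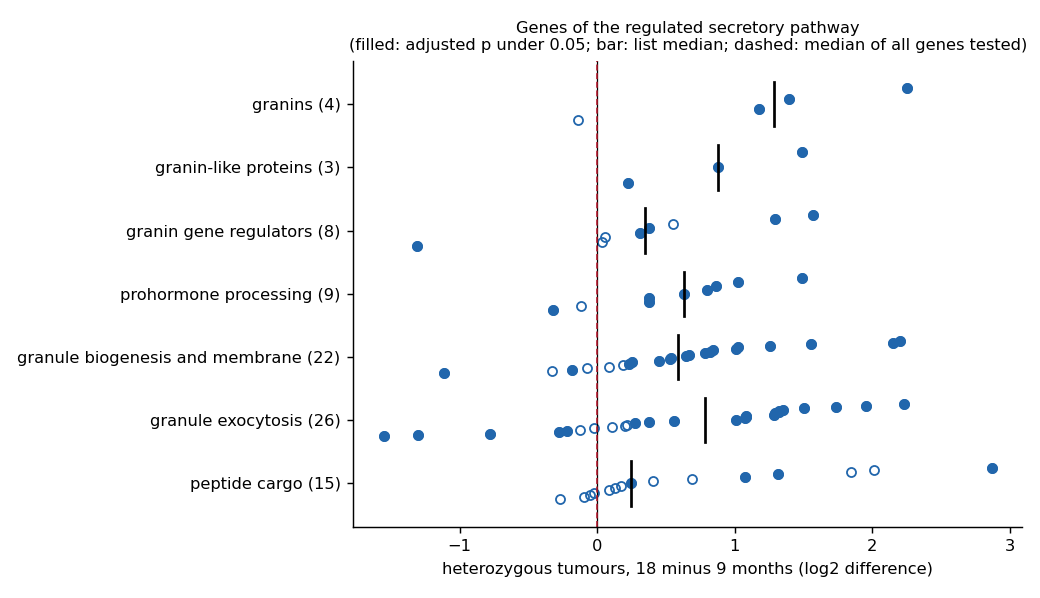
Log2 difference between 18-month and 9-month heterozygous tumours for each tested member of the secretory pathway lists, with the granins shown for comparison and the median over all genes tested at -0.0045. Most members of the processing, biogenesis and exocytosis lists lie above 0.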

How the data were processed

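RNA of 18 medullary thyroid carcinomas was measured on Affymetrix arrays. The authors deposited log2 values. The submitters' processing notes name Affymetrix Expression Console 1.3.0.187 and RMA but state neither the order nor the role of these tools. Total RNA was taken with RNeasy kits and DNase and amplified with NuGEN kits, per the labels' protocols. Array medians lay between 7.55 and 7.65. Precision is limited by how many arrays there are.

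Of 29214 probe sets 15310 had 1 gene symbol, 323 several and 13581 none in the platform annotation, and the gene IDs of 15279 of the 15310 probe sets were found in a RefSeq table (GRCr8). A gene was represented by its probe set of highest mean, and 11370 genes at or above the 30th percentile of all probe sets (6.32) were tested. With limma 3.58.1 (lmFit, eBayes; R 4.3.3, statmod 1.5.0), 1 model with a mean per group took in all 18 arrays. Calls required a p under 0.05 after Benjamini-Hochberg adjustment over all genes tested. SEs, intervals and adjusted p-values of genes are limma's. Ratios and spreads were tested by exact permutation over samples, and correlations by 100000 permutations within groups (SciPy 1.17.1, NumPy 2.4.6). All tests were two-sided.

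The granins, the lists and the tests were chosen with earlier results of these data known. Genes named were all granins, all measured granin-like proteins and regulators tested, and the 4 genes of smallest p in the age comparison from each other pathway list. Calca, Ret, Cdkn1b, Gcm2, Pth, Tg and, per granin, the 3 genes of highest within-group correlation were named too. Neurod1 and Neurod2 lay below the filter. Replicate numbers came from the labels. Alternatives covered the filter (none, or the 50th percentile), scaling (median centring, quantile normalization again), the mean of a gene's probe sets, array weights, robust eBayes with trend, a replicate block, fits of only the compared groups, marker means as covariates and leaving out each array. The procedures were tested on simulated data. In all 9 cell type lists were measured, and the fibroblast, skeletal muscle, adipocyte, macrophage, and nerve and Schwann lists had no correlation with a granin that passed by Pearson's r over 36 pairs. By rank the adipocyte list passed with Scg2 (rho = -0.63, adjusted permutation p = 0.0316).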

Additional observations from a re-analysis of the deposited data

Results flagged for a closer look

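In groups of 6 tumours, 47 named genes were searched for a highest or lowest tumour that stood apart from the rest by the 95% limit of Dixon's gap test. Of 141 groups 20 met it. Chance flags about 1 in 20 groups where genes are named without regard to these values. The genes are correlated with each other, so their flags are not independent. Rnf217, Slc9a4, Kif13b, Syn1, Prtfdc1 and Cacna2d2 were named because they follow a granin over these same tumours. Their flags are therefore not separate from the spread of that granin.

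Homozygous replicate 3 was the tumour most often set apart. Scg2 stood at 12.78 in it, against 10.74 in the next tumour of its group. It was also highest for Calcb (12.10), Ptprn (11.71), Cacna2d2 (11.24), Prtfdc1 (10.61), Foxa2 (9.86), Syn1 (9.62) and Unc13a (9.51), and lowest for Rest (8.39, against 9.08 in the next).

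In the 18-month group replicate 4 was highest for Chga (13.15, against 12.58 in the next), Gcm2 (11.17, against 7.17), Rnf217 (10.61), Kif13b (10.60) and Slc9a4 (7.44). Replicate 1 of that group was lowest for Tg (11.08, against 13.94). Kif13b was also high in homozygous replicate 5 (10.60), and Pth was low in homozygous replicate 2 (8.33, against 13.45). Heterozygous 9-month replicate 1 was lowest for Gcm2 (6.29, against 9.88), Pth (10.67, against 14.12) and Rab27b (9.78, against 9.98).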

How the results depend on the processing

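In the age comparison Chgb, Scg2 and Scg3 kept their direction and passed in every alternative other than the covariates. With the follicular mean as a covariate they differed by 0.71, 0.68 and 0.72 and did not pass, and with the parathyroid mean Scg2 differed by 1.62 and did not pass. Leaving out each array gave 1.09 to 1.30, 1.98 to 2.67 and 1.31 to 1.58, all passing. Genes called fell to 2613 with the parathyroid and 156 with the follicular covariate, from 5009. In the genotype comparison 24 genes were called with only the compared groups, 118 with array weights, 8 with the follicular covariate and 0 to 1 without each array, against 0. No granin passed there. Between homozygous and 18-month tumours 3392 genes were called, against 708 with only the compared groups, 690 with the parathyroid covariate, 2 with the follicular one and 2116 to 4702 without each array. There Chgb and Scg3 did not pass with only the compared groups (-0.68 and -0.90), the parathyroid covariate (-0.51 and -0.66) or the follicular one (-0.29 and -0.33). Scg2 passed with array weights (-2.23, adjusted p = 0.00127), and ranged from -1.82 to -1.13 without each array. The cause was not tested.

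The age ratios ranged, without each array, from 1.13 to 1.56 for Chgb over Chga, 1.35 to 1.84 for Scg3 over Chga, 2.10 to 2.94 for Scg2 over Chga, 0.86 to 1.38 for Scg2 over Chgb, 0.17 to 0.28 for Scg3 over Chgb and 0.65 to 1.09 for Scg2 over Scg3. After removal of the parathyroid mean Chga correlated at -0.14 with Chgb and -0.17 with Scg3 (adjusted permutation p = 0.716 each), and without the 2 farthest tumours at -0.51 with Scg3 (adjusted permutation p = 0.0503).

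Replicate numbers showed no pairing of the tumours in their expression profiles. Whether same-numbered tumours shared a litter or array date was not tested, since the sources used here give neither. Same-numbered tumours of different groups correlated at -0.29 to 0.35 in their deviations, and 2 of 18 tumours correlated best with their own number. With the replicate block Scg2 passed between homozygous and 18-month tumours (-1.40, adjusted p = 0.0383), and no other granin call changed. For the other named genes that belonged to a list, 2059 repeats under an alternative kept the call or its absence, 31 gained the call and 109 lost it. Some differences that were not called changed direction. Tg in the age comparison, for example, differed by -0.73 and with the follicular covariate by 0.62. Cdkn1b and the genes named only for following a granin were not repeated.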
